A study of Mus with 12 samples.

Results

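The prolactin, Psg and Ceacam genes of the mouse placenta were followed in RNA-seq libraries of whole uteri from pregnant ICR mice, an outbred strain, aged 8 weeks and with no treatment named in the labels. Members were the rows of the deposited gene tables that are named for a placental prolactin (Prl2 to Prl8 subfamilies), a pregnancy-specific glycoprotein (Psg) or a carcinoembryonic antigen-related adhesion molecule (Ceacam) and that hold an annotated Ensembl transcript. There were 53 of them among the 40787 rows of E15.5 and E18.5, and rows for the same 53 genes among the 87235 of E0.5 and E4.5, with 25 Prl, 13 Psg and 15 Ceacam genes. Each of the 4 days had 3 mice with 1 library per mouse. The values are FPKM, fragments scaled to transcript length and library size, so that levels of different genes can be set side by side. No source used here says whether placentas or fetuses were taken out of the E15.5 and E18.5 uteri. E0.5 and E4.5 precede the placenta and served as uterus without it.

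The placental prolactins are secreted hormones that arose by duplication of the pituitary prolactin gene and are made by trophoblast or by the decidua, the tissue into which the uterine stroma turns after implantation. Some bind the prolactin receptor, such as the placental lactogens Prl3d1 and Prl3b1, and others act on vessels, such as the proliferins Prl2c2, Prl2c3 and Prl2c5. Psg proteins are secreted immunoglobulin-like glycoproteins of trophoblast. Ceacam genes are their relatives, of which some are expressed in mouse trophoblast and others, such as Ceacam1, in adult epithelia and leukocytes. By a list of roles, 2 members were taken as decidual (Prl8a2 and Prl3c1), 1 as belonging to decidua and junctional zone (Prl6a1), 7 as Ceacam genes of adult tissues and 43 as trophoblast genes. The adult class stands for expression in adults outside the placenta and does not exclude the decidua. The roles were not checked in these libraries. All 25 Prl rows carry the GO term hormone activity, and 9 of the 13 Psg rows carry the term female pregnancy.

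The smooth muscle markers Acta2, Actg2, Myh11, Cnn1, Des and Smtn were found in all libraries. Their summed level was 188 FPKM in E4.5 replicate 3, 649 to 1073 FPKM in the other early libraries and 2177 to 3492 FPKM at E15.5 and E18.5. E4.5 replicate 3 was also the lowest early library for Hand2, the Hoxa10 row and Hoxa11, at 1.13, 1.83 and 0.930 FPKM. It was the highest for Wnt4, at 8.22 FPKM. Apoa4 had 11.3 FPKM in it and 0 FPKM in the other early libraries. The tissue make-up of this library was not tested. Total counts were 58020989 to 70906881 at E0.5 and E4.5, and FPKM alone give no depth for the later libraries. E15.5 replicate 1 stood apart for the members. Of the 45 members that averaged 0.1 FPKM or more at the late days and so entered the test, 27 were highest in replicate 1 among the E15.5 libraries, 17 of them at least 5 times higher than in the next library, and 14 were lowest in it. The same library had a summed yolk sac marker level of 10.2 FPKM, against 149 to 874 FPKM in the other 5. Prl5a1, at 0 FPKM in both other E15.5 libraries, has no ratio and is not among the 17. Values without this library are therefore given for the members that are named where it changed the call or the sign or moved the fold by over 1.5 times. Prl3d1, Prl5a1, Ceacam9 and Ceacam15 were below the filter without it.

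Markers of the layers of the placenta were present unevenly at E15.5 and E18.5. Tpbpa and Tpbpb are made by the spongiotrophoblast of the junctional zone. Tpbpa, in a row shared with AC160962.3, had 6.20, 1.41 and 1.66 FPKM in the E15.5 libraries and 42.2, 52.7 and 31.9 FPKM at E18.5, and Tpbpb had 1.51, 0.942 and 1.25 FPKM and then 24.1, 29.5 and 24.6 FPKM. Both met the study's criterion for a higher level at E18.5, a log2 fold change of 1 or more with an unadjusted p under 0.05, and the junctional zone genes Pcdh12 and Ascl2 did not, at log2 fold changes of 0.82 and 0.69. The syncytiotrophoblast genes Syna and Synb stayed at 0.122 FPKM or less in these libraries, and Dlx3 at 0.0128 FPKM or less. Of 3 labyrinth genes above the filter, 1 was higher at E18.5 (Epha4, log2 fold change of 1.05). Epha4 does not mark labyrinth alone here. It had 2.16 to 3.25 FPKM in the separately normalized libraries of E0.5 and E4.5, and 0.531 to 1.83 FPKM at the late days. Syna and Synb likewise reached 0.220 FPKM in E4.5 replicate 2 and 0.354 FPKM in E4.5 replicate 3. The summed level of 7 placental cathepsins was 0.602 to 2.33 FPKM, and none of the 3 tested met the criterion. The part of the junctional zone in the differences of the trophoblast members that follow was not tested. In bulk tissue, fewer cells of a type and less RNA per cell cannot be told apart.

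**Figure D1:**
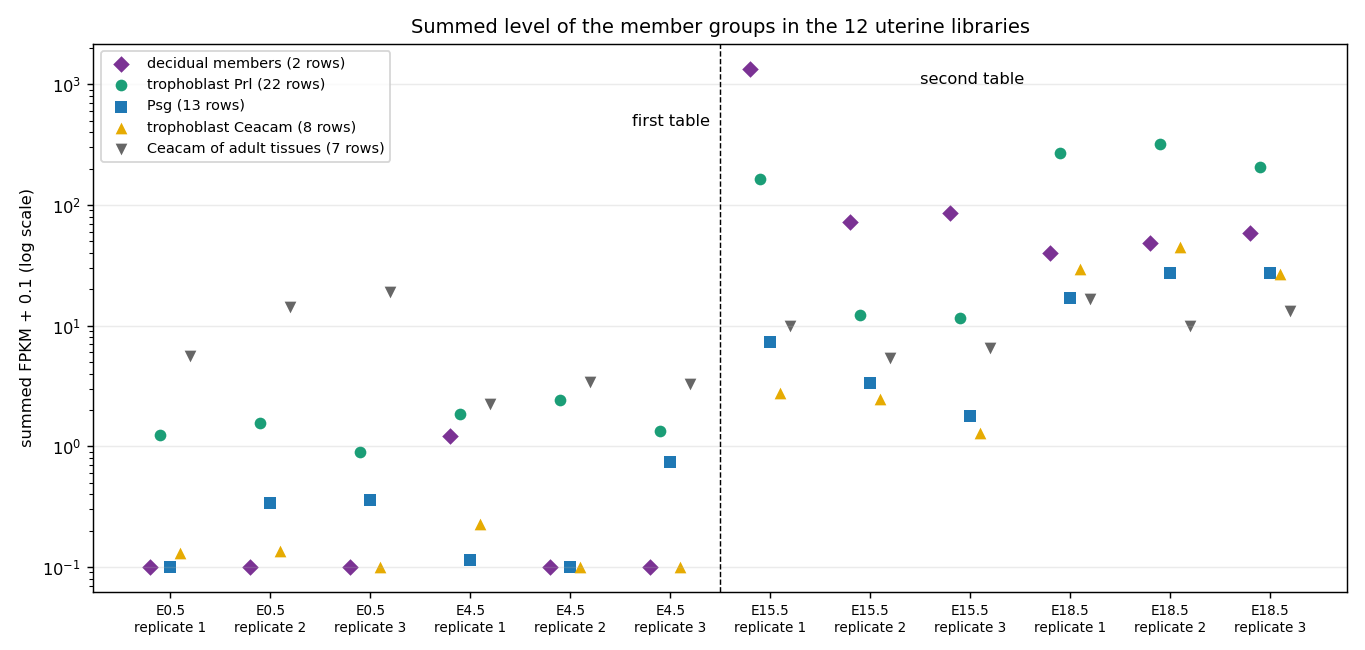
Summed FPKM plus 0.1 (vertical axis, log scale) of 5 groups of members in each of the 12 libraries (horizontal axis), with a dashed line between the separately normalized tables. Trophoblast Prl genes summed to 0.802 to 2.31 FPKM before a placenta exists, to 11.5 and 12.1 FPKM in E15.5 replicates 3 and 2, and to 165 FPKM or more in E15.5 replicate 1 and the E18.5 libraries.

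Before a placenta exists, most members had no reads in the uterus. Of the 53 genes, 31 had no count in any of the 6 libraries of E0.5 and E4.5, all of them trophoblast genes. A count of 0 allows up to 3 counts, or 0.0423 to 0.0517 CPM (counts scaled to library size) depending on the library, as far as counting error goes. The number of members at 1 FPKM or more was 2 or 3 in each of these libraries. It was 8 in E15.5 replicates 2 and 3, 21 in E15.5 replicate 1, and 22, 30 and 29 in the E18.5 libraries. The tables were normalized separately, so levels of early and late days are set side by side with no test. The decidual members Prl8a2 and Prl3c1 were both found in E4.5 replicate 1, with 59 counts (0.734 FPKM) and 31 counts (0.392 FPKM), and had 0 counts in the other 5 libraries. Reads this few were also found for trophoblast members. Besides the proliferins, 10 trophoblast genes had counts in 1 to 3 of the early libraries, with totals of 4 to 87 counts. Psg17 had 20 and 21 counts in E0.5 replicates 2 and 3 and 46 in E4.5 replicate 3, Psg16 had 13, 17 and 34 counts in the same libraries, and Psg22 had 33 counts in E4.5 replicate 3. Prl6a1 had 0.114, 0.219 and 0.224 FPKM (E0.5) and 0.367, 0.0910 and 0 FPKM (E4.5), and its days overlapped.

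The proliferin rows Prl2c2 and Prl2c3 were detected in all early libraries. Prl2c3 had 0.887, 1.04 and 0.639 FPKM (E0.5) and 1.30, 1.91 and 1.03 FPKM (E4.5). At the later days it had 2.69, 1.94 and 1.74 FPKM (E15.5) and 1.46, 1.66 and 1.92 FPKM (E18.5), a range that overlapped the early one. Neither comparison passed the test (for E0.5 against E4.5, log2 fold change -0.70, SE 0.38, edgeR adjusted p = 0.385; for E18.5 against E15.5, log2 fold change -0.31, SE 0.22, limma adjusted p = 0.607). Prl2c2 had 0.163 to 0.416 FPKM in the early libraries, with a log2 fold change of -0.31 (edgeR adjusted p = 0.848). The proliferin genes are near-identical copies, as are the Prl3d genes and many Psg genes, so that reads can be split between copies and the level of a single copy is uncertain.

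Between E18.5 and E15.5, 21 of the 38 tested trophoblast members were higher at E18.5 and none were lower. The criterion was applied in either direction to limma's test on log2(FPKM + 0.1), on which changes of low genes come out too small. By it, 27 of the 45 tested members differed, 23 higher and 4 lower, where 6.05% of all 30928 tested rows differed (3.11% higher and 2.93% lower). The median log2 fold change was 2.05 over the tested members and 0.02 over all tested rows. The groups did not overlap for 21 members that were higher at E18.5 (10.9% of all rows) and for 5 that were lower (8.96%). A member that passes the filter only through the day on which it is high is thereby favoured to differ, so these counts describe the tested members alone. With a Benjamini-Hochberg adjusted p under 0.05 from limma, 2 members passed, Prl8a6 and Ceacam11 (0.0259% of all rows).

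The count by the criterion depended little on E15.5 replicate 1, though the members counted changed, and the adjusted count depended on several libraries. Without E15.5 replicate 1, 30 of 42 tested members met the criterion, 26 higher and 4 lower, against 5.02% of rows (2.47% higher and 2.55% lower), and 9 passed the adjusted p. Prl2c2, Prl4a1, Prl7a1, Prl8a9 and Psg22 met the criterion only without that library, and Psg21 and Ceacam2 only with it. The adjusted count was 1 without E15.5 replicate 2 and 1 without E15.5 replicate 3. It was 0 without E18.5 replicate 1 and 0 without E18.5 replicate 2. With a pseudocount of 1, which shrinks the changes of low genes further, 20 members met the criterion. Psg19, Psg21, Psg26, Ceacam2, Ceacam10, Ceacam13 and Ceacam16 then missed it.

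As deposited, the tested Prl, Psg and Ceacam rows had median log2 fold changes of 0.64, 2.71 and 1.54. Without E15.5 replicate 1 these medians were 2.81, 2.40 and 1.77, so that this library moved the Prl median most. When each library was centred on the mean level of trophoblast genes that are no members, every row shifted by the same -1.25 on the log2 scale, which by itself placed the medians at -0.61, 1.45 and 0.29. On that scale 29 members met the criterion, 16 higher and 13 lower, where 67.9% of all rows did.

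**Figure D2:**
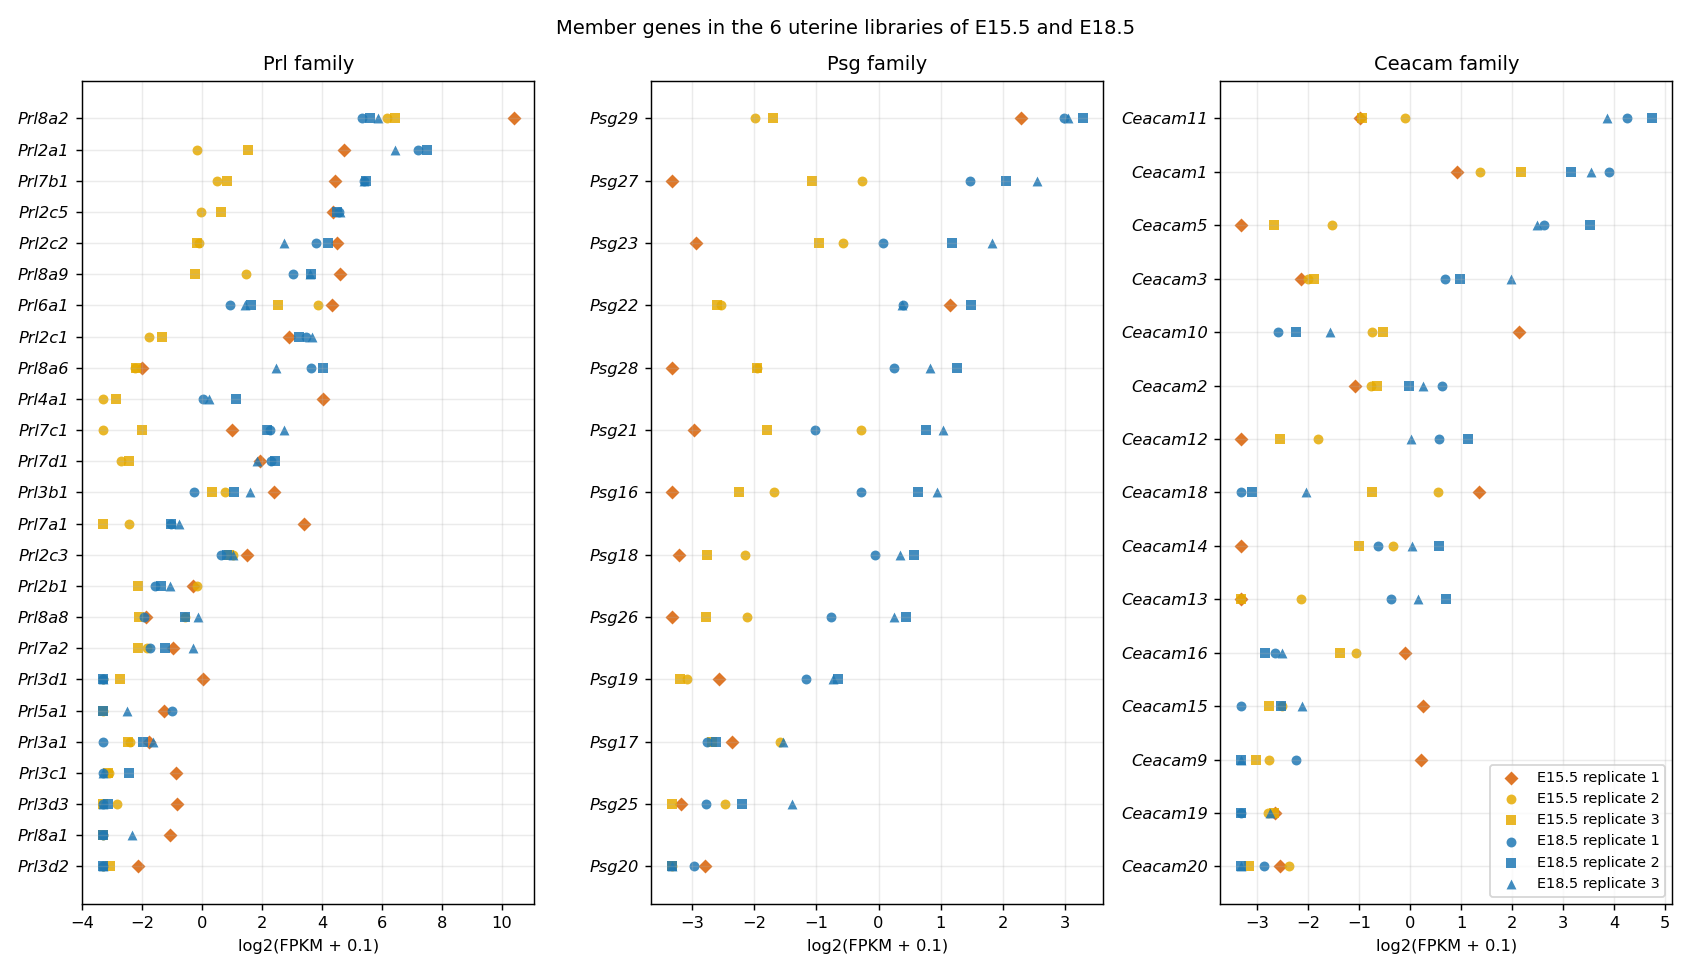
Level of each member, as log2(FPKM + 0.1), in the 3 E15.5 libraries (orange diamonds for replicate 1, yellow for replicates 2 and 3) and the 3 E18.5 libraries (blue), with genes ordered by mean FPKM within each family. Of the tested Prl genes, 19 of 21 were highest in replicate 1 among the E15.5 libraries, and of the tested Psg genes, 7 of 11 were lowest in it.

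Prl8a2, decidual prolactin-related protein, had the highest mean level of the members over the late days. It had 1342, 72.1 and 86.0 FPKM in the E15.5 libraries and 40.2, 47.8 and 58.7 FPKM in the E18.5 libraries. It held rank 30 among the rows of E15.5 replicate 1 and ranks 341 to 680 in the other 5 libraries. All E15.5 libraries lay above all E18.5 libraries, but the difference did not pass the test (log2 fold change -2.07, SE 1.06, limma adjusted p = 0.484). Without replicate 1 the log2 fold change was -0.70 (limma adjusted p = 0.308). Without E15.5 replicate 2 it was -2.81 and met the criterion (unadjusted p = 0.0405 from limma). Prl3c1, the other decidual member, had 0.440 FPKM in E15.5 replicate 1 and at most 0.0847 FPKM in the other libraries of these days, below the filter of the test.

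Prl6a1 (prolactin-like protein B), in a row shared with Gm11357, was lower at E18.5. It had 19.9, 14.3 and 5.72 FPKM at E15.5 and 1.78, 2.98 and 2.57 FPKM at E18.5, with no overlap between the days. The decrease met the criterion with all libraries (log2 fold change -2.25, SE 0.45, limma adjusted p = 0.153) and without E15.5 replicate 1, where the log2 fold change was -1.88. Of 7 other genes of decidua (Bmp2, Wnt4, Hand2, Alpl, Cebpb, Hoxa10 and Hoxa11), none were lower at E18.5 by the criterion. The Hoxa10 row was lower without overlap, at a log2 fold change of -0.78 that fell short of it. These 7 genes do not mark decidua alone. At E0.5, before a decidua exists, their mean levels ran from 0.528 FPKM (Bmp2) to 13.5 FPKM (Alpl). Wnt4, a signal of decidualization, was higher, with 1.01, 0.686 and 0.683 FPKM and then 2.52, 1.75 and 1.75 FPKM (log2 fold change 1.24, SE 0.25, limma adjusted p = 0.149).

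Among the Prl genes of trophoblast, 7 of 19 tested were higher at E18.5 by the criterion and none were lower, with a median log2 fold change of 1.18. Without E15.5 replicate 1, 11 of 17 were higher and none were lower, with a median of 3.55. Prl8a6, a prolactin-like protein of the C group, had 0.150, 0.108 and 0.114 FPKM at E15.5 and 12.3, 16.0 and 5.35 FPKM at E18.5. All E18.5 libraries lay far above the E15.5 libraries (log2 fold change 5.53, SE 0.40, limma adjusted p = 0.0218), and the log2 fold change was 5.61 without E15.5 replicate 1. When 1 library was left out, it lay between 5.20 and 5.98 and met the criterion in 6 of 6 fits, and the adjusted p was under 0.05 in 2 of 6, those without E15.5 replicate 1 or E18.5 replicate 3. The adjusted p was 0.118 with the replicate number as a block and 0.0783 with a pseudocount of 1 (limma). The other 6 (Prl2a1, Prl2c1, Prl2c5, Prl7b1, Prl7c1 and Prl7d1) were 9.45 to 43.7 times higher in E15.5 replicate 1 than in the next E15.5 library.

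Prl2a1, prolactin-like protein M, was the most abundant trophoblast member at E18.5. It had 26.1, 0.779 and 2.76 FPKM at E15.5 and 145, 179 and 86.3 FPKM at E18.5. Replicate 1 lay between the other E15.5 libraries and the E18.5 libraries, and the days did not overlap (log2 fold change 5.02, SE 1.13, limma adjusted p = 0.173, and 6.37 with an adjusted p of 0.0478 without E15.5 replicate 1). Prl7b1, prolactin-like protein N, had 21.3, 1.32 and 1.66 FPKM at E15.5 and 41.5, 43.7 and 42.1 FPKM at E18.5. The E18.5 libraries lay close together, and the log2 fold change of 3.50 (limma adjusted p = 0.234) became 4.75 (adjusted p = 0.00136) without E15.5 replicate 1. Prl7c1, prolactin-like protein O, had 1.90, 0 and 0.150 FPKM and then 4.72, 4.39 and 6.57 FPKM. Prl2c1 had 7.39, 0.190 and 0.295 FPKM and then 11.0, 9.36 and 12.5 FPKM. For both, all E18.5 libraries lay above all E15.5 libraries, at log2 fold changes of 3.83 and 3.53, which were 5.05 and 5.02 without E15.5 replicate 1 (limma adjusted p = 0.0459 and 0.00404). Prl2c1 had an unadjusted p under 0.05 in 3 of the 6 fits that left out 1 library, and missed it without E15.5 replicate 2, E15.5 replicate 3 or E18.5 replicate 3. Over those 6 fits the lowest log2 fold changes were 3.92 for Prl2a1, 2.79 for Prl7b1, 2.89 for Prl7c1 and 2.67 for Prl2c1, each without E15.5 replicate 2.

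The proliferin Prl2c5 and the proliferin-related protein Prl7d1, known to promote and to inhibit the growth of vessels, both met the criterion with all libraries. When 1 library was left out, each had an unadjusted p under 0.05 in 1 of 6 fits, the one without E15.5 replicate 1, at log2 fold changes of 4.25 and 4.76 (limma adjusted p = 0.00576 and 0.0101). The lowest values, 2.06 and 2.44, came without E15.5 replicate 2. Prl2c5 had 20.3, 0.880 and 1.43 FPKM at E15.5 and 23.2, 22.4 and 23.8 FPKM at E18.5, so that E15.5 replicate 1 came near the E18.5 level (log2 fold change 2.90, SE 1.05, limma adjusted p = 0.343). Prl7d1 had 3.65, 0.0513 and 0.0836 FPKM and then 4.74, 5.31 and 3.42 FPKM, with overlapping days and a log2 fold change of 3.26 (limma adjusted p = 0.336). Prl2c2, a proliferin copy near Prl2c5, was highest in E15.5 replicate 1, with 22.5, 0.830 and 0.790 FPKM at E15.5 and 13.6, 18.2 and 6.56 FPKM at E18.5. Its log2 fold change of 2.16 missed the criterion with all libraries (unadjusted p = 0.123 from limma), and 3.71 met it without that library. It was 1.40 without E15.5 replicate 2 and 1.37 without E15.5 replicate 3, and missed the criterion in both fits.

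Another 3 Prl genes were highest in E15.5 replicate 1 of all 6 libraries and were called without it. Prl4a1, prolactin-like protein A, had 16.3, 0 and 0.0366 FPKM at E15.5 and 0.924, 2.09 and 1.06 FPKM at E18.5. Prl7a1, prolactin-like protein E, had 10.3, 0.0853 and 0 FPKM and then 0.383, 0.380 and 0.486 FPKM. Prl8a9 had 23.8, 2.65 and 0.738 FPKM and then 8.02, 12.1 and 12.0 FPKM. None of these met the criterion with all libraries, at log2 fold changes of 1.18, -0.17 and 1.48, and each met it as higher at E18.5 without E15.5 replicate 1, at 3.55, 1.92 and 2.81.

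The placental lactogens were low at both late days. Prl3b1 (placental lactogen II), a hormone of the late placenta, had 5.14, 1.59 and 1.14 FPKM at E15.5 and 0.734, 1.97 and 2.93 FPKM at E18.5. Its days overlapped and the difference did not pass the test (log2 fold change -0.36, SE 0.66, limma adjusted p = 0.852). Without E15.5 replicate 1 the log2 fold change was 0.26, of the opposite sign, and again did not pass (unadjusted p = 0.660 from limma). Prl3d1 (placental lactogen I), a hormone of early trophoblast giant cells, had 0.907, 0 and 0.0474 FPKM at E15.5 and 0 FPKM in all E18.5 libraries. Its copies Prl3d2 and Prl3d3 had 0.125 and 0.459 FPKM in E15.5 replicate 1 and at most 0.0405 FPKM in the other 5. The remaining trophoblast Prl genes of the main cluster (Prl2b1, Prl3a1, Prl5a1, Prl7a2, Prl8a1 and Prl8a8) had at most 0.809 FPKM in any of these libraries, and none met the criterion. The log2 fold change of Prl3a1 was -0.09, and 0.14 without E15.5 replicate 1.

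**Figure D3:**
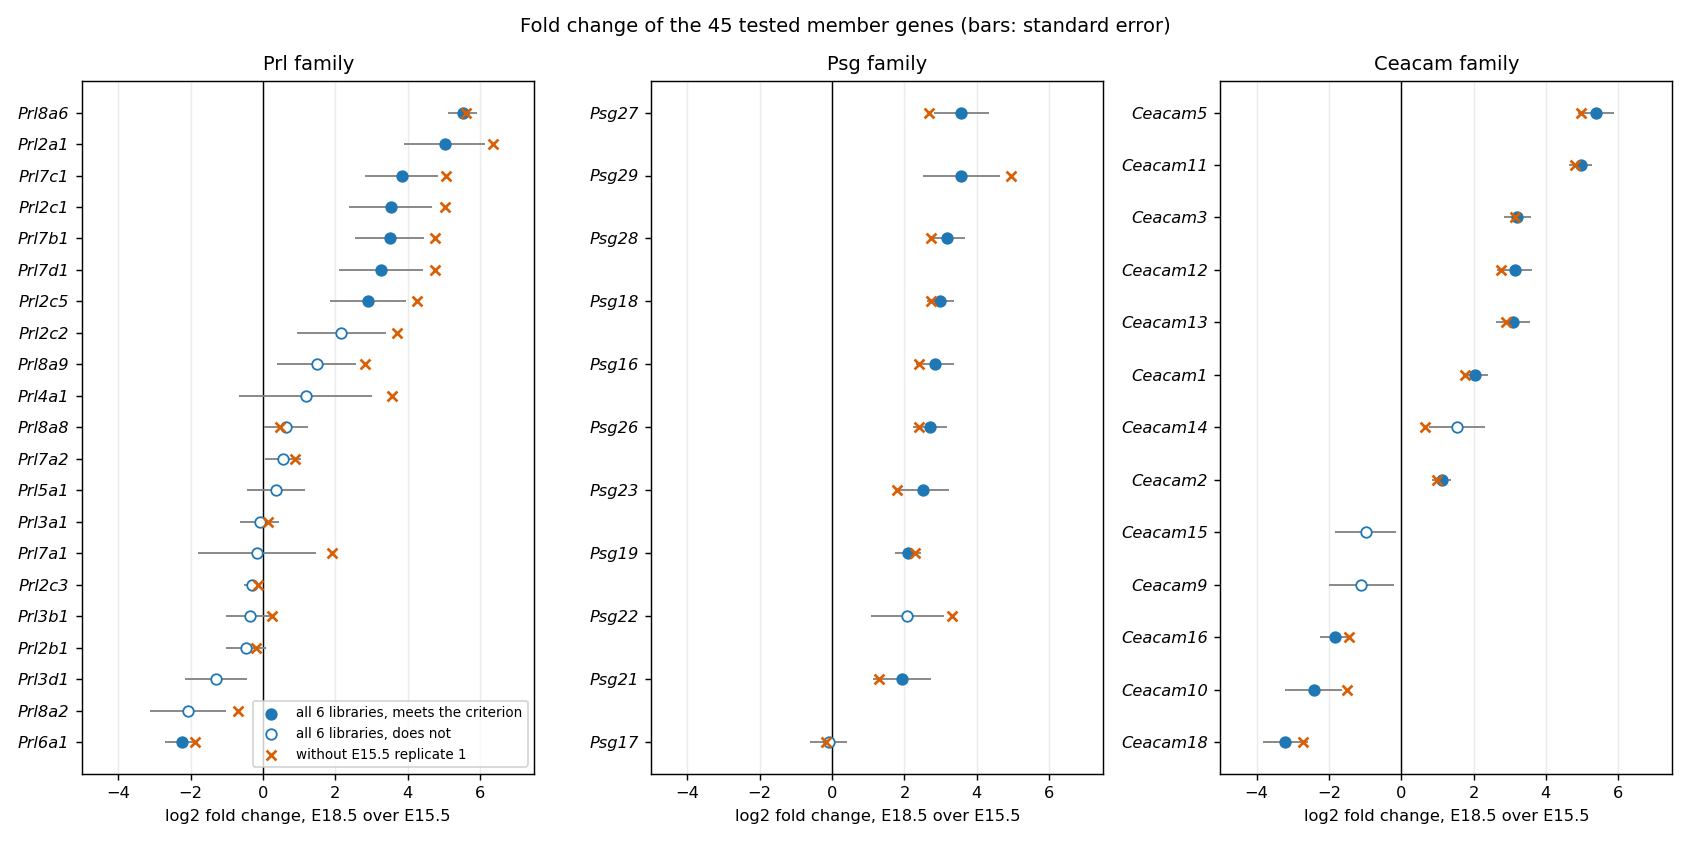
Log2 fold change of E18.5 over E15.5 for the 45 tested members with all 6 libraries (circles, filled where the criterion was met, with bars for the standard error) and, where a member was tested there, without E15.5 replicate 1 (crosses). Leaving out that library moved Prl4a1 from 1.18 to 3.55 and Psg27 from 3.58 to 2.69.

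Of the 13 Psg genes, 11 were tested, 9 were higher at E18.5 by the criterion and none were lower. Without E15.5 replicate 1 the count was again 9, of 12 tested, with Psg22 in place of Psg21. None passed the adjusted p with all libraries, where the smallest was 0.0722 for Psg18 from limma. The summed level of the family was 7.20, 3.22 and 1.68 FPKM at E15.5 and 16.7, 27.3 and 27.3 FPKM at E18.5.

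Psg29 was the most abundant of them. It had 4.79, 0.152 and 0.207 FPKM at E15.5 and 7.82, 9.64 and 8.20 FPKM at E18.5, with no overlap (log2 fold change 3.57, SE 1.06, limma adjusted p = 0.261, and 4.95 with an adjusted p of 0.00338 without E15.5 replicate 1). The log2 fold change was 2.81 without E15.5 replicate 2 and 2.96 without E15.5 replicate 3, and met the criterion in both fits. Psg22 had 2.12, 0.0722 and 0.0646 FPKM and then 1.22, 2.69 and 1.19 FPKM, so that E15.5 replicate 1 lay among the E18.5 libraries (log2 fold change of 2.08, and 3.32 without that library). Over the 6 fits that left out 1 library, the lowest value for Psg22 was 1.44. Its unadjusted p was under 0.05 in 1 of them, the one without E15.5 replicate 1. Both genes were high in E15.5 replicate 1, as most Prl genes were.

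Most other Psg genes were lowest or at 0 in that library. Psg27 had 0, 0.732 and 0.375 FPKM at E15.5 and 2.66, 4.04 and 5.77 FPKM at E18.5 (log2 fold change 3.58, SE 0.76, limma adjusted p = 0.166, and 2.69 without E15.5 replicate 1 or 4.22 without E15.5 replicate 2). Psg23 had 0.0309, 0.576 and 0.415 FPKM and then 0.953, 2.16 and 3.44 FPKM, a log2 fold change of 2.51 that was 1.79 without E15.5 replicate 1. Psg28 had 0, 0.160 and 0.160 FPKM and then 1.09, 2.31 and 1.68 FPKM, a log2 fold change of 3.19. All E18.5 libraries of these genes lay above all E15.5 libraries, and the same held for Psg16, Psg18, Psg19 and Psg26, at log2 fold changes of 2.85, 2.99, 2.09 and 2.71. With a pseudocount of 1, Psg19 and Psg26 missed the criterion, at 0.50 and 0.85. Psg21 overlapped between the days, with 0.0275, 0.725 and 0.189 FPKM and then 0.394, 1.60 and 1.95 FPKM (log2 fold change of 1.94, unadjusted p = 0.0470 from limma, and 1.30 without E15.5 replicate 1, where the criterion was missed). It also missed the criterion without E15.5 replicate 3, E18.5 replicate 2 or E18.5 replicate 3, at 1.89, 1.69 and 1.56, and with a pseudocount of 1, at 0.78. Its unadjusted p from limma was 0.0549 with 75th percentile scaling, 0.0574 without the trend, 0.0540 with no filter and 0.0561 with a pseudocount of 0.01. Psg17, which is known to bind the tetraspanin Cd9, had 0.0478 to 0.245 FPKM and did not pass the test (log2 fold change -0.10, SE 0.50, limma adjusted p = 0.956). Psg20 and Psg25 were below the filter.

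All 8 Ceacam genes of trophoblast were tested, 5 were higher at E18.5 by the criterion and none were lower. Ceacam11 had 0.407, 0.827 and 0.417 FPKM at E15.5 and 19.0, 26.6 and 14.3 FPKM at E18.5. All E18.5 libraries lay far above all E15.5 libraries (log2 fold change 4.96, SE 0.32, limma adjusted p = 0.0130), and the log2 fold change was 4.81 without E15.5 replicate 1. With 1 library left out, the adjusted p from limma was under 0.05 in 4 of 6 fits, and was 0.155 without E18.5 replicate 1 and 0.0510 without E18.5 replicate 2. Ceacam5, which RefSeq also lists as Psg30, had 0, 0.245 and 0.0570 FPKM and then 6.04, 11.4 and 5.53 FPKM (log2 fold change 5.39, SE 0.50, limma adjusted p = 0.0529). Ceacam3, also listed as Psg24, had 0.126, 0.150 and 0.170 FPKM and then 1.49, 1.87 and 3.81 FPKM (log2 fold change 3.22, SE 0.37, limma adjusted p = 0.0638). Neither of these overlapped between the days. Ceacam12 and Ceacam13 had at most 0.187 FPKM in any E15.5 library and 0.666 to 2.10 FPKM in the E18.5 libraries, at log2 fold changes of 3.13 and 3.09. With a pseudocount of 1, Ceacam13 missed the criterion, at 0.97. Ceacam14 overlapped between the days, at 1.54 (limma adjusted p = 0.476) and at 0.66 without E15.5 replicate 1.

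The 8 members listed at 0 in E15.5 replicate 1 were Psg16, Psg26, Psg27, Psg28, Ceacam5, Ceacam12, Ceacam13 and Ceacam14. Of the tested trophoblast members, 12 of 19 Psg and Ceacam genes were lowest in E15.5 replicate 1 among the E15.5 libraries, against 0 of 19 Prl genes. In turn, 17 of these Prl genes were highest in it, against 5 of the Psg and Ceacam genes. This split was seen in a single library and carries no test. Ceacam9 and Ceacam15 were among the 5, with 1.06 and 1.08 FPKM in E15.5 replicate 1 and at most 0.128 FPKM in the other 5 libraries.

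Of the 7 Ceacam genes of adult tissues, 5 were tested at the late days, 2 were higher at E18.5 by the criterion and 3 were lower. Ceacam1, an adhesion receptor of epithelia and leukocytes, had 1.78, 2.46 and 4.42 FPKM at E15.5 and 14.8, 8.83 and 11.6 FPKM at E18.5, with no overlap (log2 fold change 2.05, SE 0.34, limma adjusted p = 0.121). At the early days it had 3.25, 9.66 and 16.9 FPKM (E0.5) and 1.18, 2.74 and 1.26 FPKM (E4.5), also with no overlap (log2 fold change 2.54, SE 0.64, edgeR adjusted p = 0.116). Its close copy Ceacam2 had 0.370, 0.488 and 0.537 FPKM at E15.5 and 1.43, 0.888 and 1.09 FPKM at E18.5. It was higher at E18.5 by the criterion, at a log2 fold change of 1.12 that fell below the criterion without E15.5 replicate 1 (0.99) and without E18.5 replicate 1 (0.95), and with a pseudocount of 1 (0.54). At the early days Ceacam2 had 1.16, 3.81 and 1.41 FPKM (E0.5) and 0.578, 0.478 and 1.13 FPKM (E4.5), and its log2 fold change was 1.57. Reads of Ceacam1 and Ceacam2 can be split between the copies.

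Epithelial markers (Epcam, Krt8, Krt18, Foxa2 and Cdh1) were higher in sum on the days when Ceacam1 was. Their summed level was 178 to 357 FPKM at E15.5 and 491 to 685 FPKM at E18.5, with 2 of 5 higher by the criterion (Krt8 and Cdh1). Cdh1 was just past it, and its log2 fold change was 0.55 without E15.5 replicate 1, so that 1 of 5 met it there. Foxa2 overlapped between the days in both comparisons. The summed level was 165 to 206 FPKM at E0.5 and 58.7 to 137 FPKM at E4.5, with 2 of 5 higher at E0.5 by the criterion (Krt8 and Cdh1). Their part in the Ceacam1 difference was not tested.

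Between E0.5 and E4.5, 8 of the 53 members were tested and 3 met the study's criterion (Ceacam1, Ceacam2 and Ceacam19, all higher at E0.5), where 12.2% of all 59732 tested rows did (6.37% higher and 5.82% lower). The groups did not overlap for these 3 (12.8% of all rows were higher at E0.5 without overlap). Ceacam19 had 0.381, 0.311 and 0.0790 FPKM (E0.5) and 0.0645, 0.0640 and 0.0138 FPKM (E4.5), with a log2 fold change of 2.39 (edgeR adjusted p = 0.231). No member passed the adjusted p in edgeR (1.22% of all rows), and 1 did in DESeq2, where 9.74% of all rows passed. The count by the criterion was 1 without E0.5 replicate 2 and 1 without E4.5 replicate 2. When 1 library was left out, Ceacam2 and Ceacam19 each had an unadjusted p under 0.05 in 3 of 6 fits and Ceacam1 in 6 of 6, at a lowest log2 fold change of 1.92 without E0.5 replicate 3. Ceacam2 also missed the criterion with the replicate number as a block (1.41) and Ceacam19 in limma on FPKM (1.18).

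Ceacam10, Ceacam16 and Ceacam18 were lower at E18.5 than at E15.5. Ceacam18 had 2.45, 1.36 and 0.492 FPKM at E15.5 and 0, 0.0170 and 0.143 FPKM at E18.5 (log2 fold change -3.20, SE 0.61, limma adjusted p = 0.143). Ceacam10, a secreted member of the family, had 4.31, 0.491 and 0.589 FPKM and then 0.0647, 0.113 and 0.236 FPKM. Like Ceacam16, Ceacam18 and decidual Prl8a2, it was highest in E15.5 replicate 1. A decidual source of Ceacam10 was not tested. The log2 fold change of Ceacam10, -2.42, met the criterion with all libraries and in 5 of the 6 fits that left out 1 library, among them the one without E15.5 replicate 1 (-1.49). It missed the criterion without E18.5 replicate 1 (-2.18, unadjusted p = 0.0536 from limma) and with a pseudocount of 1 (-1.03, unadjusted p = 0.0637 from limma). Ceacam16, known from the inner ear, fell by 1.83 on the log2 scale, with at most 0.835 FPKM in any late library, and missed the criterion with a pseudocount of 1 (-0.49). Each of these genes had all E18.5 libraries below all E15.5 libraries. Ceacam19 and Ceacam20 were below the filter at the late days, and Ceacam10 overlapped between E0.5 and E4.5 (log2 fold change of 0.63, adjusted p = 0.775 from edgeR).

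**Figure D4:**
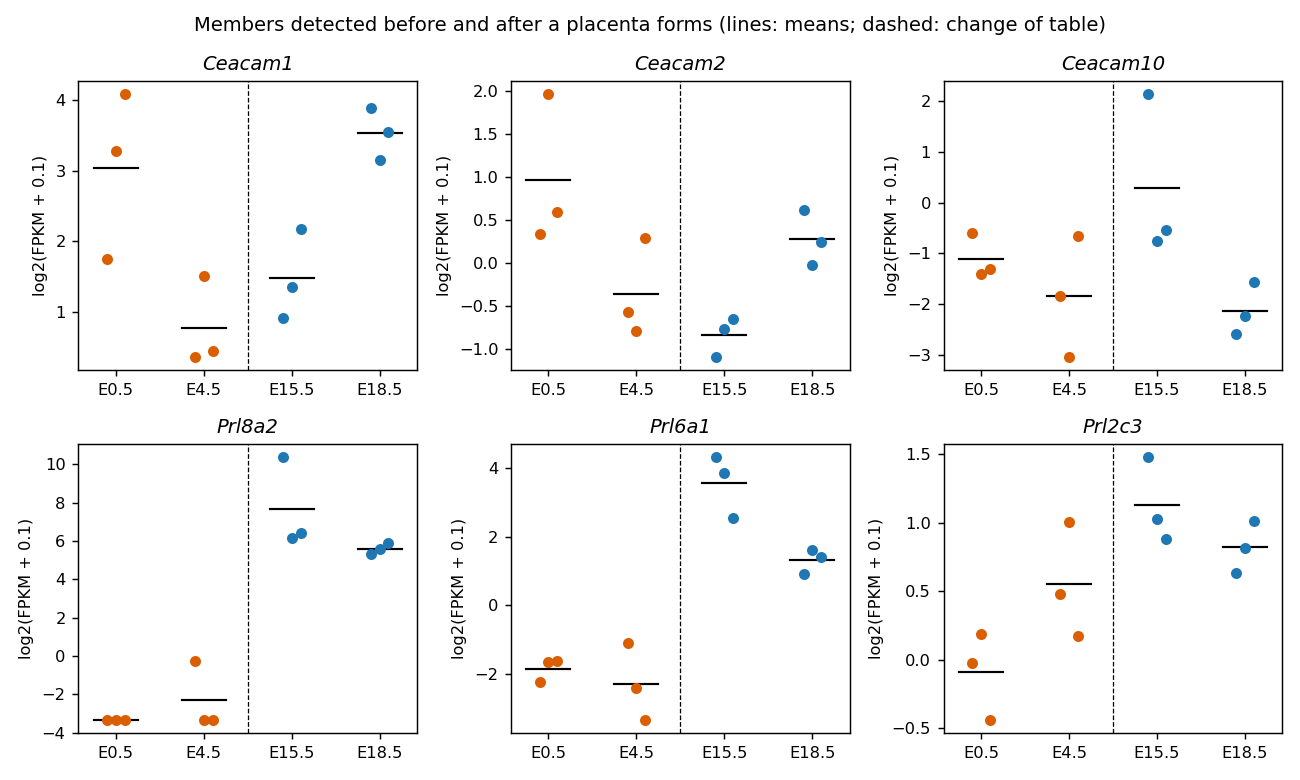
Log2(FPKM + 0.1) of 6 members in the 3 libraries of each day (points, replicates 1 to 3 from left to right) with the mean (line) and a dashed line between the tables. Ceacam1 was higher at E0.5 than at E4.5 and higher at E18.5 than at E15.5, while Prl8a2 was found in 1 of the 6 early libraries and in all 6 later ones.

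The members lie on chromosomes 7 and 13, and the differences between E18.5 and E15.5 are given along the gene order. Positions are those of the table of E0.5 and E4.5, and all 53 members overlap the RefSeq gene of their name in GRCm38. The main prolactin cluster holds 22 members on chromosome 13 from 27094190 to 28151611, and Prl2c3, Prl2c2 and Prl2c5 lie apart on the same chromosome from 12790816 to 13191923. In the main cluster, the 9 genes from Prl3d1 to Prl2b1 include both decidual members and Prl6a1. Of these, 6 were tested, none were higher at E18.5 by the criterion, and their log2 fold changes lay between -2.25 and -0.09, or between -1.88 and 0.26 for the 5 tested without E15.5 replicate 1. Of the 13 genes from Prl8a6 to Prl5a1, 12 were tested and 6 were higher at E18.5 by the criterion, with log2 fold changes between -0.17 and 5.53. Without E15.5 replicate 1, 9 of 11 were, between 0.46 and 6.37.

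On chromosome 7, 21 Psg and Ceacam genes lie from 16671331 to 18821607, and the 7 Ceacam genes of adult tissues lie between 19852097 and 43649295. In the first group, 16 of the 18 genes from Psg16 to Psg19 were tested and 14 were higher at E18.5 by the criterion, with log2 fold changes between 1.54 and 5.39, as were 14 of 17 without E15.5 replicate 1, between 0.66 and 4.98. The genes at the ends of the group did not meet it, with -0.98 for Ceacam15 and -1.10 for Ceacam9 on one side and -0.10 for Psg17 on the other. These stretches were chosen with the values known and are given without a test. Neighbouring copies can also share reads.

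**Figure D5:**
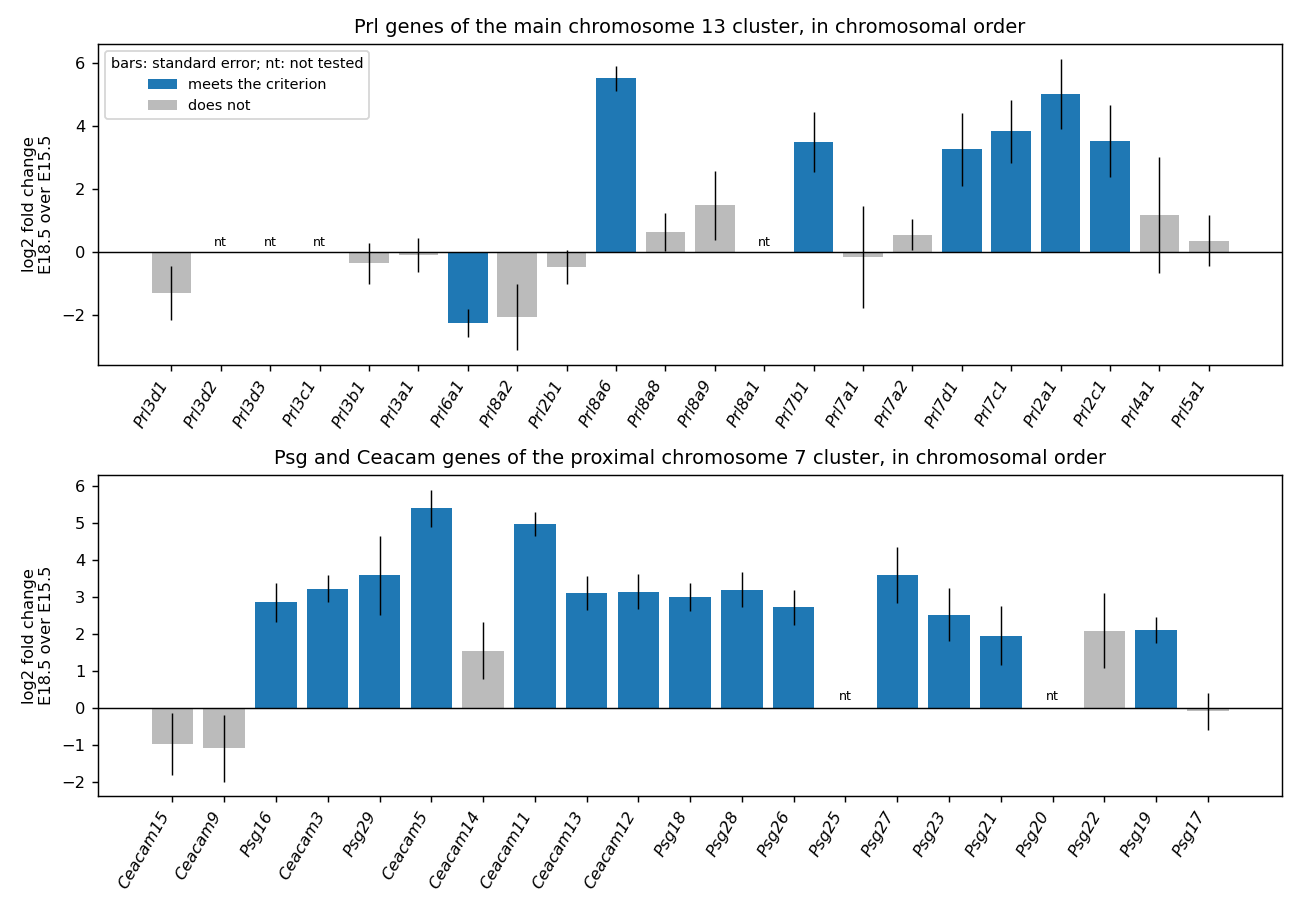
Log2 fold change of E18.5 over E15.5 (bars, with the standard error) of the members of the main chromosome 13 cluster and of the proximal chromosome 7 cluster in chromosomal order, blue where the criterion was met and grey where it was not, with nt for members not tested. Higher levels at E18.5 begin at Prl8a6 (5.53) in the first cluster and run from Psg16 (2.85) to Psg19 (2.09) in the second.

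Of 7 genes of the prolactin receptor pathway, through which placental lactogens act, 1 was higher at E18.5 by the criterion and none were lower. This was Cish, an inhibitor of cytokine receptors that is induced through Stat5, with 0.729, 1.59 and 0.464 FPKM at E15.5 and 2.24, 2.71 and 2.23 FPKM at E18.5 (log2 fold change 1.42, SE 0.40, limma adjusted p = 0.238). The row of Prlr, the receptor itself, which also holds Agxt2, had 6.76, 8.63 and 7.84 FPKM at E15.5 and 2.43, 4.67 and 5.20 FPKM at E18.5. Its days did not overlap, but the difference fell short of the criterion (log2 fold change -0.97, SE 0.29, limma adjusted p = 0.261) and met it without E15.5 replicate 1, at -1.06. At the early days the Prlr row, which there holds Gm21973 as well as Agxt2, had 0.0861, 0.266 and 0.149 FPKM (E0.5) and 0.619, 1.87 and 17.7 FPKM (E4.5). It was lower at E0.5 by the criterion (log2 fold change -5.26, SE 1.32, edgeR adjusted p = 0.117). The size of this fold rests largely on E4.5 replicate 3, the library low in smooth muscle markers, and no value without it is given.

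Of the proteins known to bind Psg proteins or proliferin (Cd9, Tgfb1 and Igf2r), none met the criterion between E18.5 and E15.5. Cd9 had 8.32, 28.4 and 32.9 FPKM at E15.5 and 38.2, 35.1 and 32.8 FPKM at E18.5, so that E15.5 replicate 1 had the lowest level. Tgfb1 and Igf2r had log2 fold changes of 0.05 and 0.07.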

How the data were processed

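Whole-uterus RNA was sequenced from 3 pregnant ICR mice at each of 4 days. The authors deposited FPKM for all days and raw read counts for E0.5 and E4.5, in 2 tables that were normalized separately. The submitters' processing notes name Bowtie 0.12.2, HISAT2 2.0, StringTie 1.3.0 and the builds mm8 and mm10. The labels give poly(A) selection and the study's methods removal of ribosomal RNA.

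Samples were grouped by day from their titles. A row was tested where its 6 libraries averaged 0.1 FPKM or more. E18.5 was compared with E15.5 by limma 3.58.1 with a mean-variance trend on log2(FPKM + 0.1), and E0.5 with E4.5 by the quasi-likelihood test of edgeR 4.0.16 with TMM factors on counts, with DESeq2 1.42.0 as an alternative, in R 4.3.3. P-values were adjusted by Benjamini-Hochberg over all tested rows, with a threshold of 0.05. With 3 mice against 3, a two-sided exact permutation test cannot go below 0.1 for a single gene and was not used. In the first table, 0.0001 FPKM stands for 0. The fits were checked on simulated data.

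Named were all members that met the criterion, the 5 most abundant of each family, the decidual members and those detected at E0.5 and E4.5. Further members and listed marker genes were named after their values were seen. The members, roles and gene lists were chosen with earlier results of these data known. Sequences were not used here, and 1 listed marker is not reported here.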

Additional observations from a re-analysis of the deposited data

How the results depend on the processing

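Between E18.5 and E15.5, the 27 members that met the study's criterion became 23 to 30 when 1 library was left out, 20 with a pseudocount of 1, 15 of 23 tested with a mean of at least 1 FPKM, and 28 with the replicate number as a block. The 2 members that passed the adjusted p from limma became 0 to 9 with 1 library left out, 1 with a pseudocount of 1, 1 with the replicate block and 27 with trophoblast centring, where 71.8% of all rows passed; 27 members had an unadjusted p under 0.05. Since that centring shifted every row by the same -1.25, the values under it, among them -0.14 for Ceacam2, follow from the shift and show nothing about single members. Between E0.5 and E4.5, the 3 members by the criterion became 1 to 4 with 1 library left out and 2 with the replicate block, and the 0 members by adjusted p in edgeR stayed 0 with any 1 library left out and became 1 in DESeq2. The log2 fold change of Prl6a1 between these days, 0.23, lay between -0.34 and 2.02 with 1 library left out and reversed to -0.05 without E4.5 replicate 2 and -0.34 without E4.5 replicate 3. The causes were not tested. The replicate numbers did not pair the mice: deviations of same-numbered libraries correlated at 0.017, 0.00069 and -0.049 at the late days and -0.056, 0.018 and -0.063 at the early days. The unknown depth of the late libraries limits what can be said of members near 0 FPKM.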

Other observations

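Rows that carry a member's name without an annotated transcript were not members and are given as levels. At E15.5 and E18.5 there were 3 such rows of Prl2c2, which lay between 1.10 and 2.72 FPKM over the 6 libraries. At E0.5 and E4.5 a further row of Prl2c2 lay between 1.58 and 3.93 FPKM, and a row of Ceacam1 between 0.835 and 3.56 FPKM. A row of Psg17 lay between 0 and 2.11 FPKM and a row of Ceacam10 between 0 and 2.16 FPKM at these early days.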
